A study of Mus musculus with 4 samples.

Results

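The genes described here are 34 members of the p53 response, chosen by symbol: the tumour suppressor gene Trp53 and its relatives, the genes that hold p53 in check, and known p53 target genes, with the cyclin-dependent kinase inhibitor gene Cdkn1a (p21) and the 3 Gadd45 genes among them. All 34 have a row among the 23473 gene rows of the deposited count table. RNA-seq read counts were compared between 2 libraries labelled wild type control and 2 labelled TLX overexpression. Both groups are labelled MIN6, a cell line from a mouse insulin-secreting tumour that often stands in for beta cells. The culture medium of both held 15% serum and glucose at 25 mM. The second group stably overexpresses TLX, the orphan nuclear receptor encoded by Nr2e1. The promoter that drives TLX, and whether each group is a clone or a pool, are not stated in the labels, and nothing says that the libraries of a group came from separate cultures. The p-values therefore measure the spread between these libraries, which may be technical.

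p53 is a transcription factor that is held low by the ubiquitin ligase Mdm2 and rises after DNA damage and other stress. It then switches on genes that stop the cell cycle, repair DNA or start cell death, and Mdm2 itself, which closes a feedback loop. Several of its targets also answer to other inputs. Plk2, Plk3 and Btg2 were first known as genes that serum or growth factors induce within minutes, and Gadd45a, Gadd45b and Gadd45g are induced by many stresses in cells with or without p53. MIN6 cells come from mice that carry the large T antigen of SV40, a viral protein that binds p53. T antigen was not analysed here, so whether it is present in the cells of these libraries was not tested.

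Gene rows held 8136185 to 9788646 counts per library. Nr2e1 was counted 8 and 10 times in control and 338 and 281 times in TLX. Its fitted log2 fold change was 5.22 (SE 0.20; edgeR adjusted p = 3.18e-14). Levels are given as CPM, counts scaled to a common library size. Defining beta cell transcripts were low or missing in both groups: 9 of 13 markers, Iapp, Chga and Slc2a2 among them, had 0 counts in every library, and the summed level of the list was 18.3 to 20.6 CPM in control and 20.8 to 21.7 CPM in TLX. The summed level of 13 mesenchymal markers was 7584 to 7992 CPM in control and 8267 to 8604 CPM in TLX, with Lum at 0, and of 8 tested 2 were called higher (Col1a2 and Sparc) and 2 lower (Fn1 and Pdgfrb). The sum of 8 leukocyte markers was 77.0 to 85.9 CPM in control and 59.9 to 62.8 CPM in TLX, most of it Cd68, which was called lower, with the pan-leukocyte gene Ptprc at or below 0.126 CPM. The part of these lists in the results below was not tested. The labelled cell type is not borne out by its own markers, and the groups are named by their labels.

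TLX libraries held less RNA of 6 genes grouped here under cell cycle arrest and antiproliferation, and more of 2. Trp53, Mdm2 and most other p53 targets did not pass the test. Of the 34 members 29 had enough counts to be tested. By edgeR's quasi-likelihood test at an adjusted p under 0.05, 7 were lower and 2 higher in TLX and 20 did not pass. Among all 11024 genes tested, 9.04% were lower and 7.79% higher (16.8% called in all), against 24.1% and 6.90% of the tested members. The median log2 fold change was -0.10 over the tested members and 0.00057 over all genes. Of the 9 members called, 8 belong to the 10 genes grouped here under cell cycle arrest and antiproliferation, of which 9 were tested. The role groups were set for this report, and members were chosen with earlier results of these data known. This count is therefore a description. In bulk RNA, fewer cells that express a gene and less of its RNA per cell cannot be told apart.

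**Figure D1:**
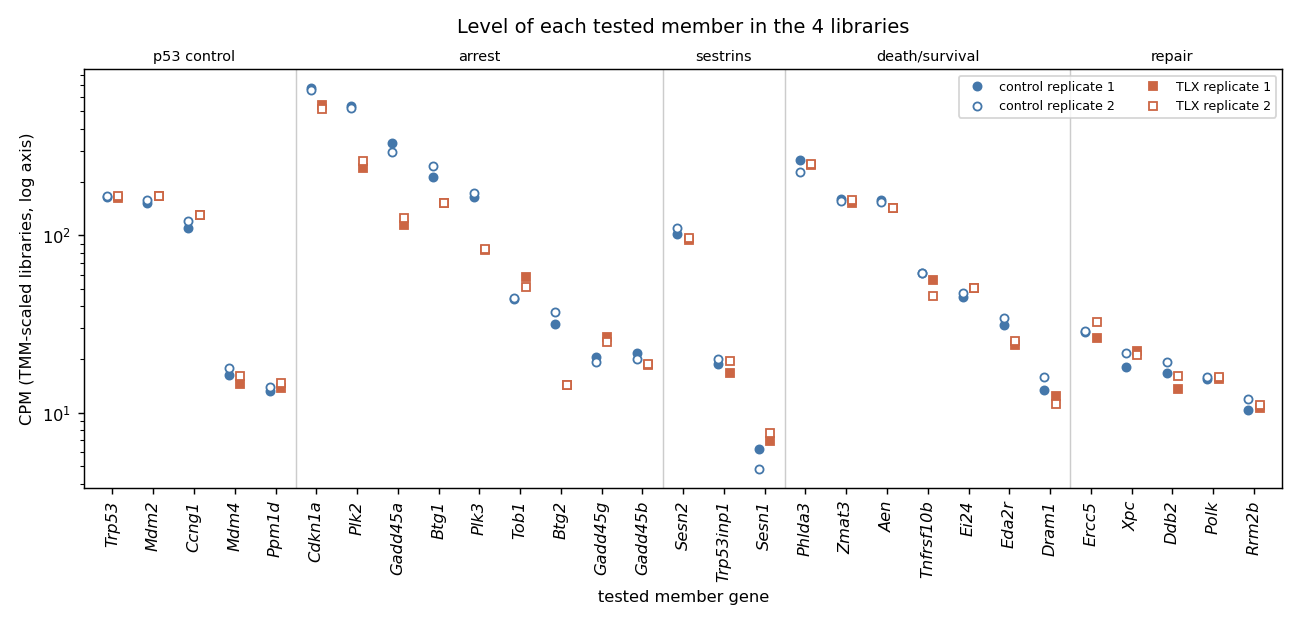
Level of each of the 29 tested members in each library, in CPM on a log axis. Circles are control and squares TLX libraries, filled for replicate 1 and open for replicate 2, and genes are grouped by role and ordered by mean level. The points of Gadd45a, Plk2, Plk3, Btg1 and Btg2 stand apart between the groups, and those of Trp53 lie on top of each other.

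Neither Trp53 nor any of the 4 other tested members in its family and feedback loop passed the test. Trp53 stood at 165 and 166 CPM in control and at 163 and 167 CPM in TLX. The TLX values lay on either side of the control values, and the log2 fold change was -0.0028 (95% interval -0.16 to 0.15; edgeR adjusted p = 0.986). Its relatives Trp63 and Trp73 had 0 counts in every library, and 3 counts, the most that a count of 0 leaves room for, equal 0.302 to 0.379 CPM depending on the library (counting error only). Mdm2, both a target and the ubiquitin ligase of p53, was at 152 and 158 CPM in control and 168 and 168 CPM in TLX. Both TLX values of Mdm2 were the higher ones, by 0.11 on the log2 scale with an interval of -0.047 to 0.27, and the gene did not pass (adjusted p = 0.354). Per kilobase of its length, the level of Mdm2 was 0.571 and 0.589 times that of Trp53 in control and 0.635 and 0.620 times in TLX.

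The other genes of this loop also failed to pass. Mdm4, which binds and silences p53, stood at 16.3 and 17.8 CPM in control and 14.6 and 16.1 CPM in TLX. Ppm1d, the phosphatase Wip1 that removes activating phosphates from p53, stood at 13.3 and 14.0 CPM in control and 13.8 and 14.8 CPM in TLX. Ccng1 encodes cyclin G1, a p53 target that recruits a phosphatase to Mdm2. It stood at 110 and 121 CPM in control and 130 and 131 CPM in TLX, a log2 fold change of 0.17 (interval 0.0066 to 0.34; adjusted p = 0.149). The adjusted p of Ccng1 was 0.0331 without control replicate 2 and 0.0331 to 0.481 over the alternatives other than the replicate block.

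Genes of the arrest and antiproliferation group carried the largest differences. Gadd45a encodes a small acidic protein that binds the mitotic kinase Cdk1, PCNA and the kinase Map3k4. It stood at 332 and 294 CPM in control and at 114 and 126 CPM in TLX. The lowest control value was more than 2 times the highest TLX value, and the fitted fall was 2.61-fold (log2 fold change -1.38, SE 0.08, interval -1.56 to -1.21; adjusted p = 6.28e-11). Only 6 of the 11024 genes tested had a smaller p, and 0.463% had a lower log2 fold change.

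Gadd45b and Gadd45g, its paralogs, differed from it in direction or size. Gadd45b was at 21.8 and 20.1 CPM in control and 18.6 and 18.9 CPM in TLX, and its log2 fold change of -0.16 did not pass (interval -0.41 to 0.099; adjusted p = 0.427). Gadd45g rose, from 20.6 and 19.2 CPM to 26.8 and 25.0 CPM (log2 fold change 0.38, SE 0.12; adjusted p = 0.0272). This call of Gadd45g was lost in DESeq2 (adjusted p = 0.232) and on leaving out control replicate 2 (0.0961), TLX replicate 1 (0.201) or TLX replicate 2 (0.0521), within a range over the alternatives of 0.0167 to 0.232. The intervals of Gadd45a and of its paralogs lie apart, and the difference between the paralogs was not itself tested. On the per-length scale Gadd45a made up 88.2% and 87.7% of the family's summed level in control and 70.3% and 72.9% in TLX. The sum of the family was 308 and 274 CPM per kilobase in control and 133 and 141 CPM per kilobase in TLX.

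Plk2 and Plk3 are polo-like kinases of the stress response and the early cell cycle. Plk2 stood at 537 and 521 CPM in control and 241 and 261 CPM in TLX, a 2.11-fold fall (log2 fold change -1.07, SE 0.08; adjusted p = 1.26e-09). Plk3 stood at 165 and 173 CPM in control and 82.9 and 83.5 CPM in TLX, a 2.03-fold fall (log2 fold change -1.02, SE 0.08; adjusted p = 3.91e-09). The groups did not overlap for either gene. The share of Plk2 in their summed per-length level was 73.3% and 71.8% in control and 71.1% and 72.5% in TLX.

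Btg1, Btg2 and Tob1 belong to a family of antiproliferative proteins that recruit the CCR4-NOT deadenylase to mRNA. Btg2 stood at 31.5 and 37.1 CPM in control and at 14.3 and 14.4 CPM in TLX, a 2.40-fold fall (log2 fold change -1.26, SE 0.13; adjusted p = 1.82e-07). Btg1 stood at 213 and 246 CPM in control and 153 and 153 CPM in TLX, and the fitted level fell by 33.3% (log2 fold change -0.58, SE 0.08; adjusted p = 1.93e-05). For both genes every TLX value lay below every control value. Tob1 rose, from 43.8 and 44.6 CPM to 58.1 and 51.5 CPM (log2 fold change 0.31, SE 0.09; adjusted p = 0.0251). The call of Tob1 was lost in DESeq2 (adjusted p = 0.18) and on leaving out TLX replicate 1 (0.364), within a range over the alternatives of 0.0211 to 0.364. Of the 3 genes' summed per-length level, Tob1 made up 26.7% and 24.2% in control and 41.9% and 39.0% in TLX.

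Cdkn1a encodes p21, which inhibits cyclin-dependent kinases and is the best known p53 target in growth arrest. It was the most abundant member per length in both groups, at 329 CPM per kilobase in control and 262 in TLX on average. Its values were 675 and 656 CPM in control and 545 and 519 CPM in TLX. All TLX values were below all control values, and the fitted level fell by 20.1% (log2 fold change -0.32, SE 0.08, interval -0.48 to -0.16; adjusted p = 0.00517). The call was lost when either TLX library was left out, with an adjusted p of 0.0548 without replicate 1 and 0.159 without replicate 2 (range over the alternatives 0.000503 to 0.159). Per length, the level of Gadd45a was 0.815 and 0.742 times that of Cdkn1a in control and 0.348 and 0.401 times in TLX. Rprm, which encodes the G2 arrest protein Reprimo, had 0 counts in every library.

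**Figure D2:**
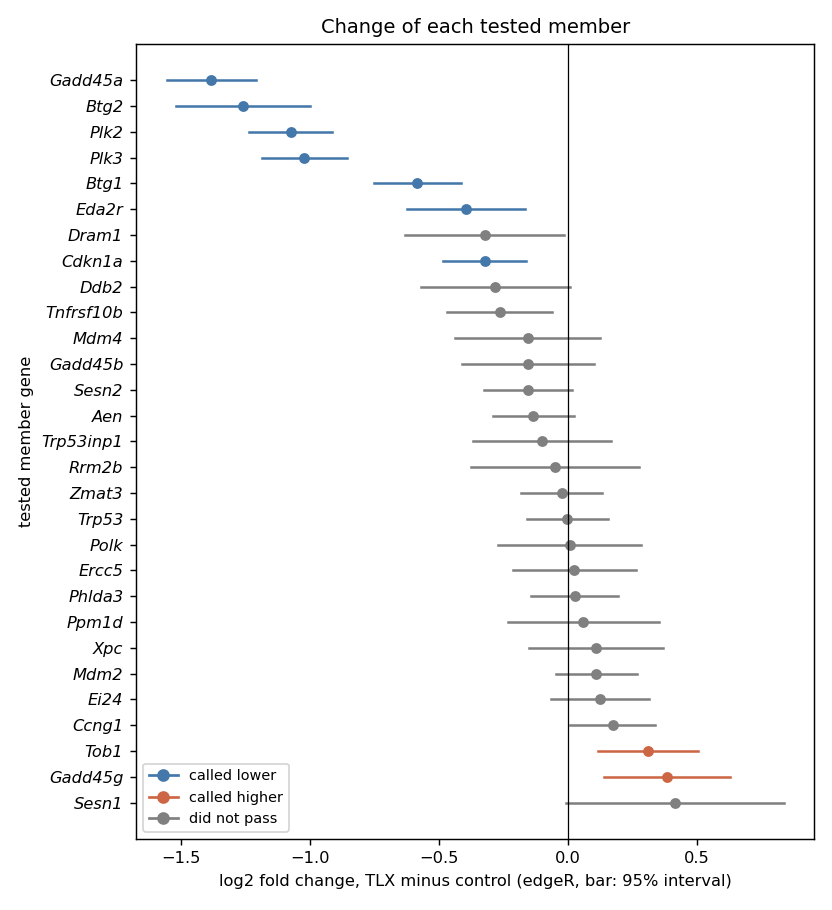
Log2 fold change of each tested member, TLX minus control, from the edgeR fit over all genes, with its 95% interval as a bar. Blue marks the 7 genes called lower, orange the 2 called higher and grey the 20 that did not pass; Gadd45a, Btg2, Plk2 and Plk3 lie near or below -1.02.

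The 250 bases before the start of some of these genes are shown because known p53 target genes are among the members. Whether p53 has a part in the 7 falls was not tested. RefSeq promoters (GRCm38.p6) were matched for 26 of the 34 members, with 32 start sites. For 29 of these starts, that of Btg2 not among them, the bases after the start were found in an annotated transcript. The first stretch, chr17:29090729-29090975 (plus strand), lies before the upstream of 2 Cdkn1a starts, which are 2790 bases apart, and stops at an annotated exon. The others are chr13:110394794-110395043 (plus) for Plk2, chr1:134079156-134079405 (minus) for Btg2 and chr10:117710759-117711008 (minus) for Mdm2, a target that did not pass. Capitals mark matches to the p53 consensus half-site, to the cyclic AMP response element TGACGTCA and to the TLX half-site AAGTCA, on either strand.
Cdkn1a, upstream start: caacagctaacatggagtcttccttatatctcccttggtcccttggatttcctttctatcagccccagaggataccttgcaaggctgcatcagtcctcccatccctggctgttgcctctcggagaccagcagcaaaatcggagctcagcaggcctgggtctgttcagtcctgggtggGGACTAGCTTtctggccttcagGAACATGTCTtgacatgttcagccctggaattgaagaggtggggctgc
Plk2: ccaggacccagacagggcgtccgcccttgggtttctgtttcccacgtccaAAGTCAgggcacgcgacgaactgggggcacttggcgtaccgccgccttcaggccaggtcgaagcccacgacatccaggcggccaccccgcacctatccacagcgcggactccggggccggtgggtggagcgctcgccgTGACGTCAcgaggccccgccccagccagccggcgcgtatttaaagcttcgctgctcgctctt
Btg2: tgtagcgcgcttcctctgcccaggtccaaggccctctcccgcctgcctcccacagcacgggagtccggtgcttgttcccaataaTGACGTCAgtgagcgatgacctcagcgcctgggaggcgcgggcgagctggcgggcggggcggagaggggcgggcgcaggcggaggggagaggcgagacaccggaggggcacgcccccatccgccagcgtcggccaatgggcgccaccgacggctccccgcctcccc
Mdm2: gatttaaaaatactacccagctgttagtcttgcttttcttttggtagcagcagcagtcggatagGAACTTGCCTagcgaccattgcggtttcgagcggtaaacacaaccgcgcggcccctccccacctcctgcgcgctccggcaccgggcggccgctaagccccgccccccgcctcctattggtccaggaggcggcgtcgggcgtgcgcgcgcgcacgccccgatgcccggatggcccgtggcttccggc

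In the Cdkn1a stretch the capitals are 2 exact matches to the p53 half-site, with 12 bases between them. They start 73 and 51 bases before the upstream start. The window before the other Cdkn1a start, chr17:29093519-29093768, held 0 half-sites. The bases right after GAACATGTCT, tgacatgttc, miss the consensus only at their first letter, so this adjoining near match was neither marked nor counted. Which of these runs p53 binds was not measured. The window of the upstream start was the 1 member promoter of 32 with 2 exact half-sites at most 13 bases apart. That pattern was in 0.0639% of all 32851 RefSeq promoter windows of the same length. At least 1 half-site was in 10 member windows (31.25%) and in 7.13% of all windows. Those 10 covered 2 of the 8 windows of members called lower (Cdkn1a and Gadd45a), 8 of the 18 of members that did not pass, Mdm2, Trp53 and Ccng1 among them, and 0 of the 2 of members called higher. The members were listed as p53 targets, so these shares are a description. Bases outside the windows, introns among them, were not searched. A window without a half-site therefore does not mean a gene without a p53 site.

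The element TGACGTCA was in 3 member windows, those of Plk2, Btg2 and Ppm1d (9.375%; 1.55% of all windows). AAGTCA was in 5 (15.625%; 13.1% of all windows), of which Plk2 and Eda2r were called lower. The box CCAAT was in 18 (56.25%; 33.8%), the AP-1 element TGANTCA in 1 (3.125%; 6.75%), the ATF4 element TGATGNAA in 1 (3.125%; 3.45%), the E-box CACGTG in 3 (9.375%; 6.02%), and the CArG box in 0 (1.47% of all windows). The motifs were searched on both strands, and a palindrome was counted once. Windows of Gadd45a, Plk3 and Btg1 held no TGACGTCA and no AAGTCA. A match is a run of letters in a window of fixed length, and binding was not measured.

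The sestrins are p53 targets that restrain the growth kinase mTORC1 and protect against oxidation, and none of them passed. Sesn2, a leucine sensor, made up 94.0% to 96.6% of the family's per-length level in the 4 libraries. It stood at 101 and 110 CPM in control and 93.7 and 96.6 CPM in TLX (log2 fold change -0.15, interval -0.32 to 0.017; adjusted p = 0.217). Sesn1 was low, with 52 and 48 counts in control and 60 and 61 in TLX. Its log2 fold change was 0.41, with an interval of -0.0080 to 0.84 that held 0 (adjusted p = 0.175). It ranged from 0.23 without control replicate 2 to 0.59 without control replicate 1. Sesn3 had 0 counts in all libraries. Trp53inp1, a stress protein that acts in p53 activation and autophagy, stood at 18.8 and 20.1 CPM in control and 16.8 and 19.7 CPM in TLX (adjusted p = 0.654).

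**Figure D3:**
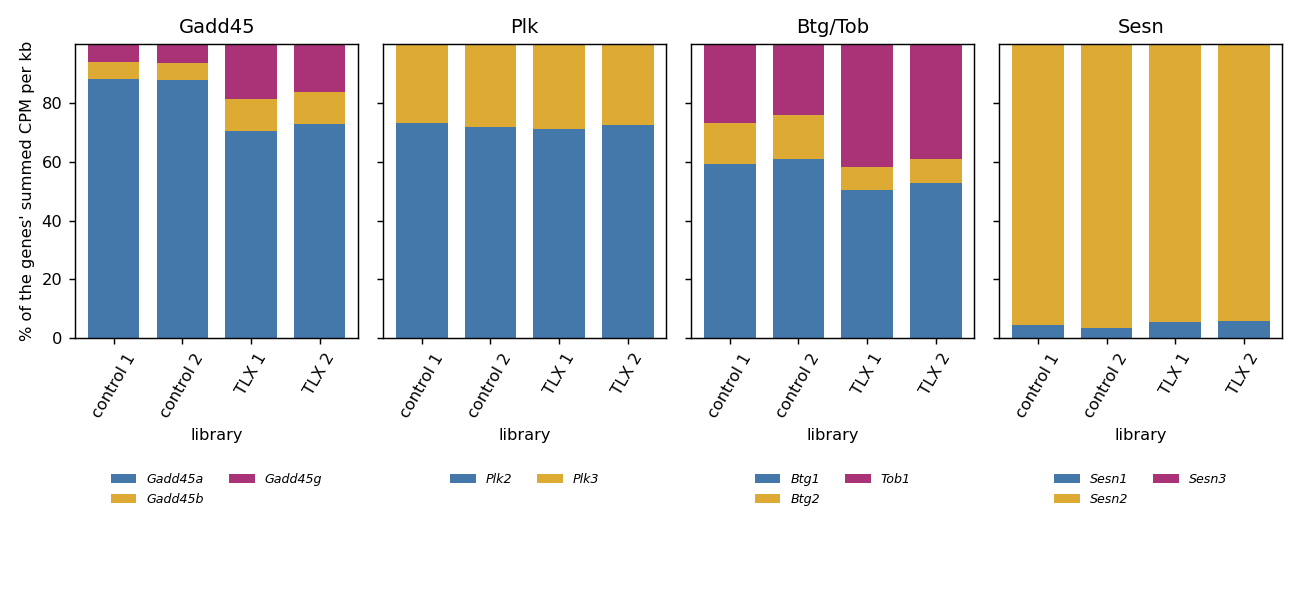
Share of each gene in the summed level of its group, as a percentage of CPM per kilobase, in each of the 4 libraries. Gadd45a takes a smaller share of the Gadd45 genes in TLX (70.3% and 72.9%) than in control (88.2% and 87.7%), Tob1 a larger share beside Btg1 and Btg2, and Plk2 and Plk3 keep nearly the same shares.

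Among 8 genes of cell death, survival signalling and autophagy, 1 fell and 6 did not pass. That fall is 14.3% of the 7 tested, against 9.04% of all genes tested. Eda2r, a death receptor for ectodysplasin A2, stood at 31.3 and 34.04 CPM in control and 24.3 and 25.5 CPM in TLX (log2 fold change -0.40, SE 0.11; adjusted p = 0.0148). The call of Eda2r was lost in DESeq2 (adjusted p = 0.154) and on leaving out control replicate 2 (0.06), TLX replicate 1 (0.131) or TLX replicate 2 (0.052), within a range over the alternatives of 0.0024 to 0.154. Tnfrsf10b, the mouse TRAIL receptor, was at 61.3 and 61.2 CPM in control and 56.2 and 45.5 CPM in TLX, so the TLX libraries differed more from each other than the higher one did from control. Its log2 fold change was -0.27 (interval -0.47 to -0.062; adjusted p = 0.0677), and it was -0.43 (adjusted p = 0.0263) on leaving out TLX replicate 1 and -0.12 (0.656) on leaving out TLX replicate 2, the ends of its range over 12 alternatives, of which 5 passed. Dram1, a lysosomal protein of autophagy, stood at 13.5 and 15.9 CPM in control and 12.4 and 11.2 CPM in TLX (log2 fold change -0.32, interval -0.63 to -0.015; adjusted p = 0.145).

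Among the p53 targets of this group, Phlda3 and Zmat3 were nearly level. Phlda3, which blocks the survival kinase Akt, was second in level per length in TLX, and stood at 267 and 228 CPM in control and 250 and 254 CPM in TLX (log2 fold change 0.027, interval -0.14 to 0.20). Zmat3, an RNA-binding p53 target, stood at 160 and 155 CPM in control and 153 and 158 CPM in TLX (-0.025, interval -0.18 to 0.13). For both genes the TLX values lay inside the range of the control values or overlapped it. Aen, an apoptosis-enhancing nuclease, was at 159 and 154 CPM in control and 142 and 143 CPM in TLX (-0.13, interval -0.29 to 0.024), and Ei24, a protein of the endoplasmic reticulum, at 44.9 and 47.5 CPM in control and 50.5 and 50.3 CPM in TLX (0.12, interval -0.065 to 0.31). Both TLX values lay below both control values for Aen and above them for Ei24, and neither gene passed. Over Phlda3, Zmat3, Aen and Ei24 the adjusted p ranged from 0.248 for Aen to 0.872 for Phlda3. Perp, a membrane protein of p53-dependent death, had 1 count in control replicate 1 and 0 elsewhere.

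All 5 DNA repair members were tested and 0 passed in edgeR, where 0 had an unadjusted p below 0.05; in DESeq2 their lowest adjusted p was 0.567. Ddb2, which finds ultraviolet damage in DNA, had the largest difference, with 16.8 and 19.2 CPM in control and 13.6 and 16.2 CPM in TLX (log2 fold change -0.28, interval -0.57 to 0.0057; adjusted p = 0.175). Xpc, the damage sensor of nucleotide excision repair, stood at 18.2 and 21.8 CPM in control and 22.2 and 21.1 CPM in TLX. Ercc5, the endonuclease XPG of the same pathway, stood at 28.7 and 28.9 CPM in control and 26.4 and 32.4 CPM in TLX. For Xpc and Ercc5 the groups overlapped, as they did for Polk, a translesion polymerase, and Rrm2b, a subunit of ribonucleotide reductase, with log2 fold changes between -0.051 and 0.11 and adjusted p of 0.617 to 0.984. Levels here were low, at 10.4 to 32.4 CPM, and the intervals reached 0.27 to 0.37 above 0 for Xpc, Polk and Rrm2b.

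Both TLX libraries lay below both control libraries for 14 of the 29 tested members and above them for 6, so that the groups did not overlap for 20. Among all tested genes the shares were 28.6% below, 28.5% above and 57.1% in all. The 29 log2 fold changes ran from -1.38 to 0.41. Gadd45a, Plk2, Plk3, Btg1 and Btg2 passed under each of the 13 alternatives, with adjusted p of at most 0.000371. The number of members called lower was 7 in the main analysis and 5 to 8 when 1 library was left out. The number called higher fell from 2 to 0 without TLX replicate 1 and to 1 without TLX replicate 2.

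**Figure D4:**
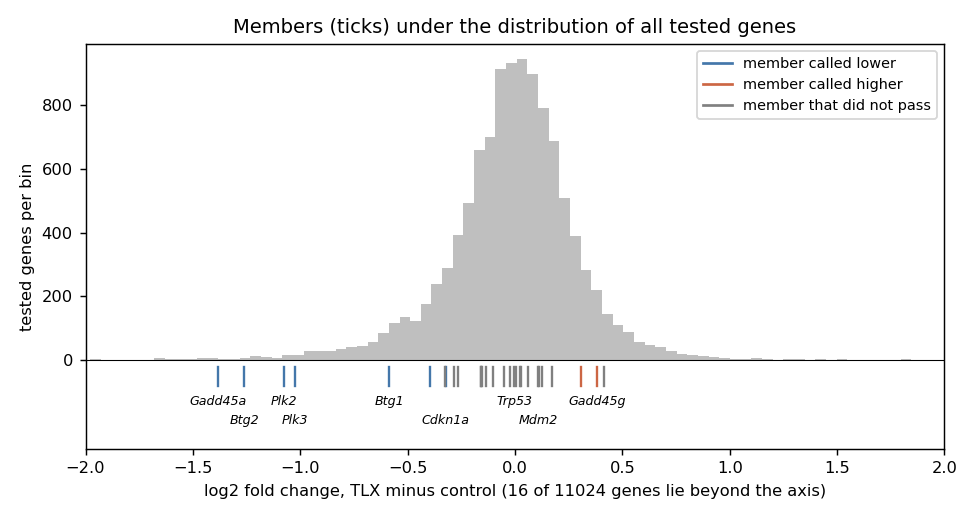
Distribution of the log2 fold change (TLX minus control) over the genes tested, as a histogram, with a tick below it for each tested member. The axis stops at -2 and 2, beyond which 16 of 11024 genes lie; Gadd45a, Btg2, Plk2 and Plk3 lie in the left tail and Trp53 and Mdm2 under the peak.

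Other genes of the pathway came from 8 lists of 167 genes, which mix p53 targets with regulators, partners and genes that p21 lowers. Of 152 tested, 27 were higher and 11 lower in TLX (17.8% and 7.24%, against 7.79% and 9.04% of all genes tested). This pooled count does not show how p53 targets moved as a group. Among 43 other p53 targets 4 rose and 6 fell (9.30% and 14.0%), with a median log2 fold change of 0.03. DESeq2 called 1 of them higher and 4 lower. Lif, a cytokine, fell from 94.5 ± 1.0 to 48.6 ± 3.2 CPM (SD, n = 2; adjusted p = 4.53e-08), the receptor kinase gene Epha2 from 646 ± 46 to 447 ± 1 CPM (4.59e-05) and Bbc3, which encodes the death protein PUMA, from 41.2 ± 2.4 to 25.5 ± 0.7 CPM (5.19e-05). Sco2, an assembly factor of cytochrome oxidase, fell by 0.40 on the log2 scale. Rises numbered 1 without TLX replicate 2.

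Upstream regulators of p53 held 3 rises and 2 falls among 25 tested (12% and 8%, against 7.79% and 9.04% of all genes tested). DESeq2 called 2 of them higher and 0 lower. Pml, a scaffold of nuclear bodies, rose from 78.2 ± 0.5 to 108 ± 2 CPM (SD, n = 2; adjusted p = 0.000325), and the deubiquitinase gene Usp7, whose product stabilizes Mdm2 and p53, from 59.4 ± 3.9 to 78.7 ± 3.4 CPM (0.00253). The acetyltransferase gene Ep300 rose by 0.29 on the log2 scale, and the ubiquitin ligase gene Rchy1 fell by 0.29. Without TLX replicate 2 there was 1 rise, and falls numbered 1 without control replicate 2 and 0 without either TLX replicate.

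Among 15 tested genes that p21 is known to hold down through the DREAM repressor complex, 10 rose, 0 fell and 5 did not pass, with a median log2 fold change of 0.35. Only 2 rose without TLX replicate 1, 5 without TLX replicate 2 and 5 in DESeq2. Foxm1, a transcription factor of mitotic genes, rose from 193 ± 5 to 276 ± 4 CPM (SD, n = 2; adjusted p = 3.48e-05), Ccnb1, which encodes cyclin B1, from 77.4 ± 1.5 to 109 ± 1 CPM (0.000136), and Cdc20 from 113 ± 7 to 149 ± 5 CPM (0.00119). Of 13 partners of p21 and other inhibitors 4 rose, Ccne1 (0.64), Ccnd3 (0.45), the replication clamp gene Pcna (0.33) and Ccna2 (0.28), and 0 fell, with 2 rises without TLX replicate 1 and 7 without control replicate 2. Of 13 GADD45 partners and kinases of the p38 and JNK cascade 5 rose and 0 fell, among them Map3k4 (0.45), Map2k3 (0.42), Ccnb1 and Cdk1 (0.35); 3 rose without TLX replicate 1 and 2 without TLX replicate 2. Ccnb1, Cdk1, Ccna2 and Pcna stand in more than 1 list. Genes called higher were 66.7% of the DREAM list, 30.8% of the p21 partners and 38.5% of the GADD45 partners. Over all genes tested the share was 7.79%.

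Most family relatives of the members that passed were higher. Of those tested 33.3% were called higher and 8.33% lower, against 7.79% and 9.04% of all genes, and DESeq2 called 2 higher. Of 12 tested 4 rose and 1 fell, with 2 rises without control replicate 1. Plk1, the mitotic polo kinase, rose from 60.2 ± 1.7 to 101 ± 5 CPM (SD, n = 2; adjusted p = 1.47e-06) and Rrm2, the replicative relative of Rrm2b, from 66.7 ± 0.4 to 103 ± 4 CPM (1.01e-05), and Ccng2 rose by 0.42 on the log2 scale. Phlda1, a relative of Phlda3, fell from 245 ± 9 to 132 ± 8 CPM (2.31e-08). In nucleotide excision repair 1 of 23 rose, Lig1 (0.25, adjusted p = 0.0458), and 1 fell, Ercc1, from 140 ± 5 to 92.7 ± 2.6 CPM (SD, n = 2; 1.15e-05). No gene of the list was called higher without control replicate 2 or without either TLX replicate, nor with library totals, with no filter on low counts, at 10 CPM or more, in DESeq2 or with the clone rows included. Of 12 sestrin partners 0 rose and 1 fell, Nprl3 (-0.47), with 0 falls in DESeq2, and the call also depended on which libraries were kept. Called genes were 8.33% of this list and 8.70% of the repair list, against 16.8% of all genes tested.

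**Figure D5:**
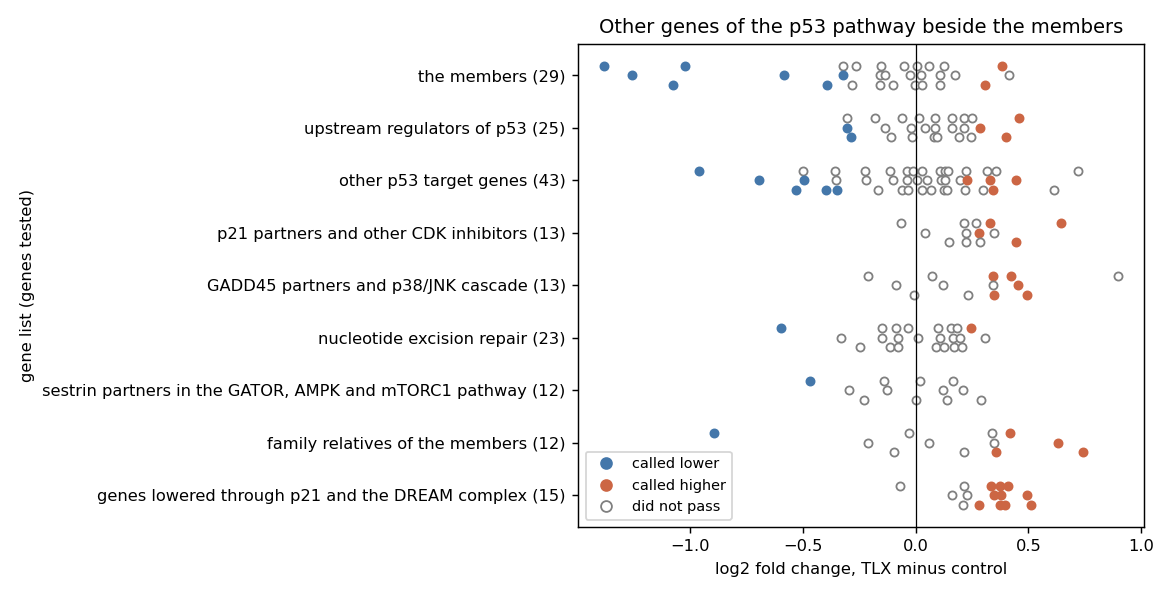
Log2 fold change, TLX minus control, of each tested gene in the members (top row) and in the 8 lists of other pathway genes, with the number tested in brackets. Filled points were called lower (blue) or higher (orange), and open points did not pass; 10 of the 15 genes lowered through p21 and DREAM are orange, and the 4 lowest points of the plot are members.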

How the data were processed

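RNA-seq of 4 libraries was deposited as 1 table of read counts per gene with gene lengths. Per the submitters' processing notes the tools include TopHat2 2.0.13 and the build mm9; the counting tool and strand setting are not stated in the labels, so overlapping and antisense genes cannot be told apart. Of 56826 rows, 33353 clone rows (23.3% to 25.1% of counts) were left out, and 27 gene names had been turned into dates. Counts were tested with edgeR 4.0.16 in R 4.3.3 (filterByExpr with a minimum count of 10, TMM scaling, quasi-likelihood test, 2 residual degrees of freedom), with Benjamini-Hochberg adjustment over 11024 genes and a threshold of 0.05. CPM use TMM-scaled library sizes, levels per kilobase divide by the deposited length, and intervals are 95%. On simulated data the test called 11, 37, 46 and 50 of 50 genes changed 1.25, 1.5, 2 and 4-fold. The simulation gave all genes the same replicate spread (dispersion) and no library effect, so its counts are not the power in these data. DESeq2 1.42.0, limma 3.58.1 (voom), other scalings and filters, a replicate block and leaving out each library were alternatives.

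All members were described. Of the pathway lists, up to 4 called genes with the smallest p in each were named; 1 item is not reported here. Members and lists were chosen with earlier results of these data known.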

Additional observations from a re-analysis of the deposited data

How the results depend on the processing

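DESeq2's Wald test called fewer genes: 355 higher and 484 lower over all genes, against 859 and 997 in edgeR. It called 0 members higher and 6 lower, against 2 and 7 in edgeR. In the pathway lists it called 15 higher and 6 lower, against 27 and 11. Leaving out 1 library gave 388 to 993 genes higher and 585 to 1060 lower, 0 to 2 members higher and 5 to 8 lower, and 13 to 35 list genes higher and 7 to 11 lower. The counts over all genes were below the main ones without either TLX replicate and above them without either control replicate, and the cause was not tested. The labels give both groups replicates 1 and 2 but do not say that a number marks a shared culture or day. With 2 pairs the deviations of same-numbered libraries correlated at 0.108. A fit with the replicate block called 1495 genes higher and 1487 lower, 3 members higher and 8 lower, and 47 list genes higher and 15 lower. It kept the calls of all 9 called members, and Tnfrsf10b (adjusted p = 0.00497) and Ccng1 (0.0340) passed as well. This fit is not part of the ranges of adjusted p given above. Changes near 0 turned sign without passing. Polk was -0.0031 with library totals, -0.0065 with at least 10 CPM, and -0.020 to 0.032 when 1 library was left out. The leave-one-out ranges were -0.0086 to 0.25 for Xpc, -0.020 to 0.014 for Trp53, -0.085 to 0.14 for Phlda3, -0.14 to 0.059 for Rrm2b, -0.22 to 0.012 for Trp53inp1 and -0.13 to 0.17 for Ercc5. The cause of these changes of sign was not tested. In the simulation, with 2 libraries a group and the same dispersion for all genes, 11 of 50 genes with the smallest change were called.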
